A study of Mus musculus with 12 samples.

Results

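Transcripts of 10 homeostatic and lymphoid tissue chemokines and chemokine receptors were followed in the cecum of mice after cauterization. The genes were Cxcl12, Cxcr4, Cxcl13, Cxcr5, Ccl19, Ccr7, Ccl20, Ccr6, Ccl25 and Ccl28. They were found by symbol among the non-control spots of the arrays, which gave 10 of 37074 genes and 17 of 56605 probes. The samples were whole cecum from 3 sham control mice and from 3 mice at each of 3 times, namely 3 h, 12 h or 72 h from cauterization of the cecum with bipolar forceps, which gave 12 arrays. The labels give the animals as male and name no strain or age, while the study's methods name C57BL/6 mice, describe the samples as biological triplicates and put the sham operation at 0 h. The methods describe anesthesia and a midline incision for cauterization and do not say what the sham operation involved. No sham group at the later times was analysed here, so cauterization cannot be told apart from the time since anesthesia and incision.

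Homeostatic chemokines are made without inflammation and set where leukocytes settle. CXCL12 from stromal and endothelial cells holds CXCR4-bearing cells in their niches, CXCL13 draws CXCR5-bearing B cells into follicles, and CCL19 and CCL21 draw CCR7-bearing T cells and mature dendritic cells into T cell zones. In the gut, CCL20 from the epithelium over lymphoid follicles attracts CCR6-bearing B cells and dendritic cells, and CCL25 and CCL28 from epithelium attract cells bearing CCR9 or CCR10. The cecum holds lymphoid follicles of its own.

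Levels are given throughout as log2 of the background-corrected intensity minus the 75th percentile of its array, and differences as differences of these log2 values. A gene was represented by its brightest probe, and every other probe is described beside it. Levels of different probes are not comparable, so no gene is ranked against another. A difference was called at a fold change over 2 and a limma adjusted p under 0.05, adjusted over all 56605 probes. In whole tissue, fewer cells of a type and less RNA per cell cannot be told apart.

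On each array 60.2% to 65.2% of probes passed as well above background. All 16 epithelial and all 10 smooth muscle markers were above background on all 12 arrays. The labelled sex did not match the arrays, since Xist was above background on all 12 arrays, Ddx3y and Eif2s3y were above it on 0, the brightest probe of Uty on 1, and of Kdm5d only 1 of 6 probes, on all 12 arrays. The arrays lay on 2 slides. The sham and 3 h arrays and 12 h replicates 1 and 2 were on the first, and 12 h replicate 3 and the 72 h arrays were on the second, so that slide and the 72 h group are separated only by 12 h replicate 3. The median difference of all genes from sham was 0.08, -0.01 and -0.14 in the order of the times.

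Of the 10 genes, 1 was called higher than sham at 3 h, where 7.37% of all genes were called in either direction and 3.26% higher. At 12 h 1 gene was called higher, against 9.06% of all genes in either direction and 4.1% higher, and at 72 h 0 were called, against 8.85%. At an unadjusted limma p under 0.05 the numbers were 2, 3 and 3 of the 10 genes, against 34%, 32.4% and 32.8% of all genes. All arrays of a time lay on 1 side of all sham arrays for 3, 5 and 3 of the 10 genes, against 46.6%, 36.2% and 37.5% of all genes, so that such a separation was common on these arrays. The gene called at both 3 h and 12 h was Ccr7. In the order of the times, the 10 genes had median differences from sham of -0.11, 0.08 and -0.42. Between times, 0 genes were called for 12 h minus 3 h (3.46% of all genes), where 3 had an unadjusted limma p under 0.05 (24.1% of all genes), and 2 for 72 h minus 12 h (7.52%), namely Cxcl12 higher, as were 4.33% of all genes, and Ccr7 lower, as were 3.19%. The same 2 genes were called in the same directions for 72 h minus 3 h (11.7% of all genes, 6.19% higher and 5.51% lower). Thus, Ccr7 rose early and fell again by 72 h, whereas Cxcl12 rose from 3 h and 12 h to 72 h, and the other 8 genes were not called in any of the 6 comparisons.

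**Figure D1:**
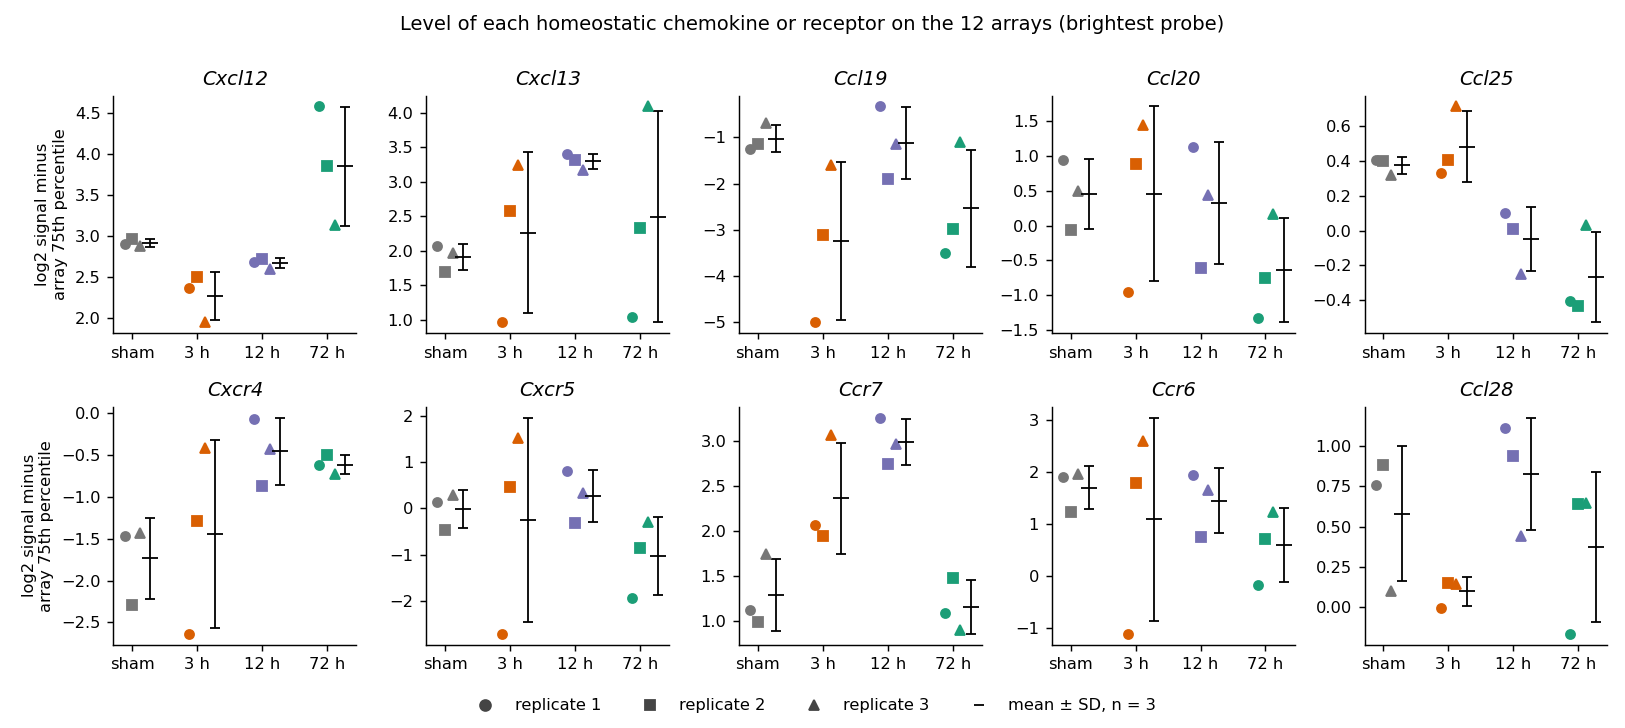
Level of each gene on each array (vertical axes, log2 intensity relative to the array's 75th percentile, each panel on its own scale) in the sham, 3 h, 12 h and 72 h groups; marker shapes give the replicate and bars the mean ± SD (n = 3). Ccr7 lies between 2.74 and 3.25 at 12 h, above all sham arrays, Cxcl12 lies between 3.13 and 4.58 at 72 h, and Cxcr5, Ccr6, Ccl20 and Ccl19 spread widely at 3 h.

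Ccr7, the receptor that brings mature dendritic cells and T cells to lymphatics and T cell zones, was the only member called against sham on its brightest probe. It had 2 probes, A_55_P2023542 (chromosome 11 of mm9, 99005551 to 99005610, minus strand) and A_51_P420229 (99005513 to 99005538 on the same strand for the aligned part). The coordinates of A_51_P420229 cover only 26 bases and lie downstream on this strand. In the transcript, however, it starts at base 1560 and A_55_P2023542 at base 1877, so its placement is uncertain. Both probes target the same RefSeq transcripts (NM_007719 and NM_001301713). The last 30 bases of each 60-base probe are shown because the 2 probes measured the same transcript with different sequence.
Ccr7, A_55_P2023542: ttttgattcatatatcttttatgaagaaac
Ccr7, A_51_P420229: caagacagagcttatctccacacttagcaa

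On the brighter probe, A_55_P2023542, the sham arrays of Ccr7 read 1.13, 0.99 and 1.75, the 3 h arrays 2.07, 1.95 and 3.06, the 12 h arrays 3.25, 2.74 and 2.96, and the 72 h arrays 1.09, 1.48 and 0.90. All 3 h and 12 h arrays lay above all sham arrays, and the 72 h arrays overlapped sham. Ccr7 was 2.1-fold higher at 3 h (difference 1.07, 95% interval 0.38 to 1.76, limma adjusted p = 0.0382) and 3.24-fold higher at 12 h (1.70, 1.0 to 2.39, limma adjusted p = 0.00373). At 72 h the difference was -0.13 (-0.82 to 0.56, limma adjusted p = 0.795). The fall from 12 h to 72 h was 3.55-fold (difference -1.83, limma adjusted p = 0.00371), with no overlap of arrays.

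The second probe of Ccr7, A_51_P420229, gave nearly the same differences from a dimmer signal. Its means were -1.73 ± 0.38 (SD, n = 3) in sham and, in the order of the times, -0.68 ± 0.66, 0.00 ± 0.29 and -1.96 ± 0.26. The differences from sham were 1.05 (limma adjusted p = 0.0458), 1.72 (0.00396) and -0.23 (0.646). The first 2 were called, against 7.33% of all probes at 3 h and 8.94% at 12 h. The 12 h rise was called on both probes without any 1 of the 12 arrays (1.55 to 1.93 on the brighter probe). The 3 h rise was less firm. On the brighter probe it ranged from 0.72 to 1.30 without 1 array and was called in 8 of 12 such fits, and was lost without sham replicate 1, sham replicate 2, 3 h replicate 3 or 12 h replicate 3. On the other probe of Ccr7, A_51_P420229, it ranged from 0.67 to 1.26 and was called in 3 of 12. Within the first slide alone, which holds all sham and 3 h arrays, the 3 h rise on the brighter probe was not called (limma adjusted p = 0.0807). For 72 h minus 3 h, the call of -1.20 was lost without 3 h replicate 3 (-0.85), 72 h replicate 1 or 72 h replicate 3. With slide as a block, neither Ccr7 probe was called for 72 h minus 12 h (-1.80, limma adjusted p = 0.0682 on the brighter probe and -1.84, 0.068 on the other) or for 72 h minus 3 h (-1.16, 0.249 and -1.11, 0.281).

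Markers of the cells that carry Ccr7 were set beside it. Of all genes, 3.26% were called higher at 3 h and 4.1% at 12 h (7.37% and 9.06% in either direction). Of 16 T cell markers 0 were called at 12 h (median difference 0.27) and 1, Cd5, was lower at 3 h (-1.48, median of the list -0.39). Cd3e read between 1.43 and 1.97 at 12 h and between 1.19 and 1.72 in sham. Of 14 dendritic cell markers, 2 were called higher at 3 h, among them Batf3 (1.42, limma adjusted p = 0.0026), a transcription factor of conventional dendritic cells, and 2 at 12 h, among them Fscn1 (1.04, limma adjusted p = 0.0315), an actin-bundling protein of mature dendritic cells. The median difference of this list was below 0 at both times, -0.26 and -0.15. Fscn1 was also higher at 72 h (1.72), when Ccr7 was not. The other marker of this list called at 3 h and 12 h was Ccl22, which was above background on 0 sham arrays. Ptprc, the leukocyte common antigen, was higher at 12 h (1.36, limma adjusted p = 0.0239) and read 0.01 above sham at 3 h. The part of these cells in the Ccr7 level was not tested. Among 18972 genes, those whose course was near that of Ccr7 over the 12 arrays, by root mean square distance after subtracting each gene's sham mean, included Clca4b (0.32) and Lonrf3 (0.38).

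Neither measured ligand of Ccr7 was called against sham in the fit of all 12 arrays. Ccl19 was measured by 1 probe, A_55_P2099742 (NM_011888), placed at 42250105 to 42250164 on the plus strand of chromosome 4 of mm9. The mouse genome carries a functional Ccl19 gene and near-identical copies and pseudogenes on chromosome 4, among which the probe may not tell, so its values are uncertain as to the copy. Its last 30 bases are shown because only this probe measured Ccl19.
Ccl19, A_55_P2099742: catccgaagactgaagacgtcttctgccaa

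Ccl19 read -1.24, -1.14 and -0.69 on the sham arrays and -5.02, -3.12 and -1.59 at 3 h, where 2 of 3 arrays were above background. At 12 h it read -0.32, -1.90 and -1.14, and at 72 h -3.51, -2.99 and -1.10. The 3 h arrays all lay below sham, but their range was 3.43, and the difference of -2.22 (95% interval -4.09 to -0.36) was not called (limma adjusted p = 0.0954). Without 3 h replicate 3, the Ccl19 array nearest sham, it was -3.05 and was called (limma adjusted p = 0.0311). The 72 h difference of -1.51 (-3.37 to 0.35) was not called either (limma adjusted p = 0.247). Ccl21a, the other Ccr7 ligand, expressed by lymphatic endothelium and stroma of T cell zones, differed from sham by -0.57, -0.54 and -0.10 at the 3 times, with no call. Of 8 lymphatic endothelial markers, 1 was called at each time, namely Pdpn, which was higher by 1.73, 2.32 and 2.58 and is shared with fibroblasts. The receptor was thus called higher at 3 h and 12 h, and neither of these ligands was. At 12 h, however, the Ccl19 difference was -0.10, and its 95% interval of -1.96 to 1.765 holds the Ccr7 rise of 1.70. A course of Ccl19 unlike that of Ccr7 is therefore not shown at 12 h.

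**Figure D2:**
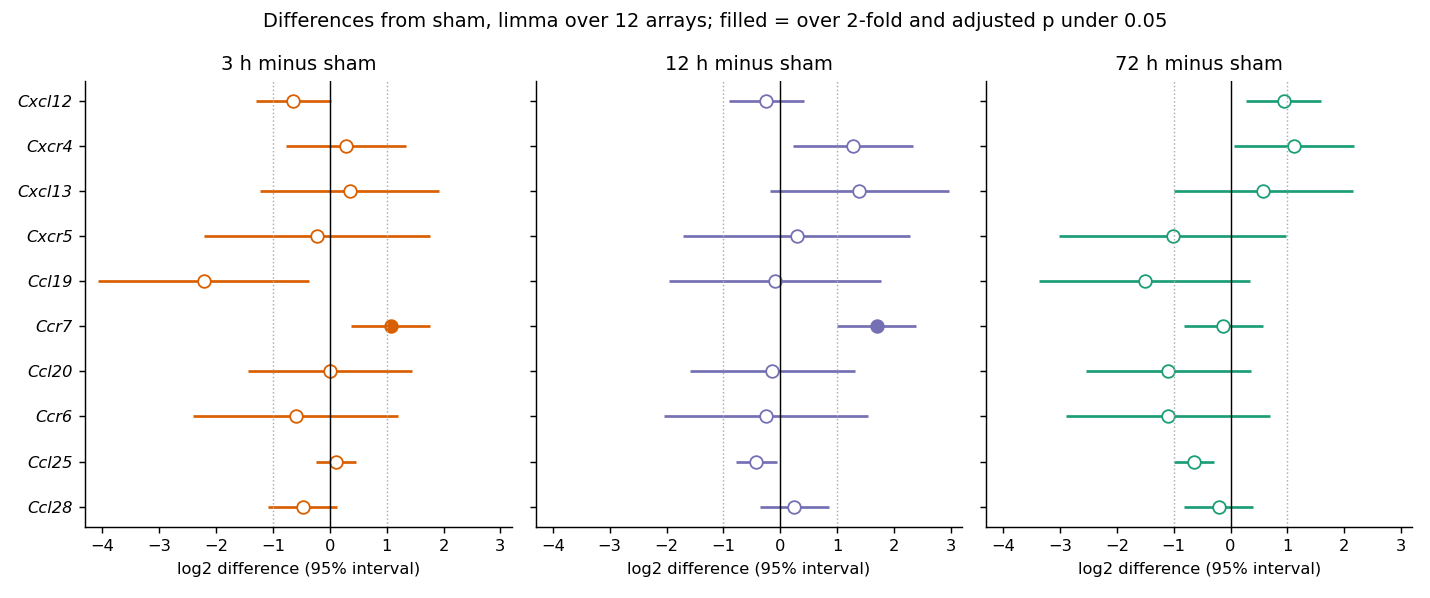
Differences from sham (horizontal axes, log2) at the 3 times for the brightest probe of each gene, with 95% intervals from limma over 12 arrays; filled points are over 2-fold with an adjusted p under 0.05 and dotted lines mark 2-fold. Ccr7 is the only filled point, at 3 h (1.07) and 12 h (1.70), and the intervals of Cxcr5, Ccl19 and Ccr6 are the widest.

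Cxcl12, the stromal chemokine that retains hematopoietic and lymphoid cells through Cxcr4, was measured by 2 probes that target different transcript variants. Both rose between 12 h and 72 h, and 1 of them was also lower than sham at 3 h and higher at 72 h. The brighter probe, A_51_P172502, targets NM_001012477 and NM_013655, transcript variants 3 and 2, at 117131227 to 117131286 on the plus strand of chromosome 6 of mm9. The other, A_55_P1966204, targets NM_021704, variant 1, and lies upstream at 117125026 to 117125085. Their last 30 bases are shown because the variants end at different places. Capitals mark AATAAA, the hexamer of a polyadenylation signal, which only the variant 1 probe of these holds.
Cxcl12, A_55_P1966204: tatttacctgaAATAAAatctactagttgt
Cxcl12, A_51_P172502: tgctttcttattcttatttttaatatatga

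As printed, in the sense of the transcript, AATAAA was found in 2 of the 17 member probes and in 9.77% of all probes. The other member probe with it was the brighter probe of Cxcr4.

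On the brighter probe, A_51_P172502, the sham arrays of Cxcl12 read 2.91, 2.97 and 2.88, the 3 h arrays 2.37, 2.50 and 1.95, the 12 h arrays 2.68, 2.73 and 2.61, and the 72 h arrays 4.58, 3.85 and 3.13. The 3 h and 12 h arrays all lay below sham and the 72 h arrays all above it. The differences were -0.65 (95% interval -1.31 to 0.01, limma adjusted p = 0.152), -0.25 (limma adjusted p = 0.647) and 0.94 (0.28 to 1.60, 1.91-fold, limma adjusted p = 0.05), none of them called. From 12 h to 72 h it rose 2.27-fold (1.19, limma adjusted p = 0.0213), and from 3 h to 72 h 3-fold (1.59, limma adjusted p = 0.00314). The 12 h to 72 h rise of this probe ranged from 0.82 to 1.55 without 1 array and was called in 7 of 12 such fits, not without any 1 of the 12 h arrays, 72 h replicate 1 or 72 h replicate 2. Without 72 h replicate 3, Cxcl12 was called against sham at 72 h (1.30, limma adjusted p = 0.0052).

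The variant 1 probe, A_55_P1966204, had larger differences from sham in both directions. Its sham arrays read 2.02, 1.90 and 1.77, its 3 h arrays 0.82, 0.99 and 0.83, its 12 h arrays 1.15, 0.80 and 1.02, and its 72 h arrays 4.10, 3.60 and 2.87. No array of any time overlapped sham. This Cxcl12 probe fell by 1.02 at 3 h (limma adjusted p = 0.0195, called, and called in 8 of 12 fits without 1 array) and differed by -0.91 at 12 h (limma adjusted p = 0.0291, 1.88-fold and so not called). It was 3.09-fold higher at 72 h (1.63, 95% interval 1.06 to 2.19, limma adjusted p = 0.0019), a call that 8.26% of all probes met. The rise from 12 h to 72 h was 5.8-fold (2.54, limma adjusted p = 0.000306), against 7.08% of all probes called, and it was called without any 1 of the 12 arrays (2.25 to 2.86). From 3 h to 72 h this Cxcl12 probe rose by 2.65 (limma adjusted p = 0.000114), against 11.2% of all probes called.

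The spacing between the Cxcl12 probes on each array was compared between the groups. The variant 1 probe minus the other was -0.89, -1.07 and -1.11 on the sham arrays, and the 3 h arrays gave -1.55, -1.51 and -1.12, the 12 h arrays -1.53, -1.93 and -1.59 and the 72 h arrays -0.48, -0.25 and -0.26. It lay below all sham values on all arrays at 3 h and 12 h and above them on all arrays at 72 h (two-sided exact permutation test, p = 0.1 for each time, the smallest that 3 arrays against 3 allow). At 3 h the nearest values were close, -1.12 against -1.11 in sham. Since 3 arrays against 3 cannot pass 0.05, this test does not show that the Cxcl12 probes changed unequally.

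**Figure D3:**
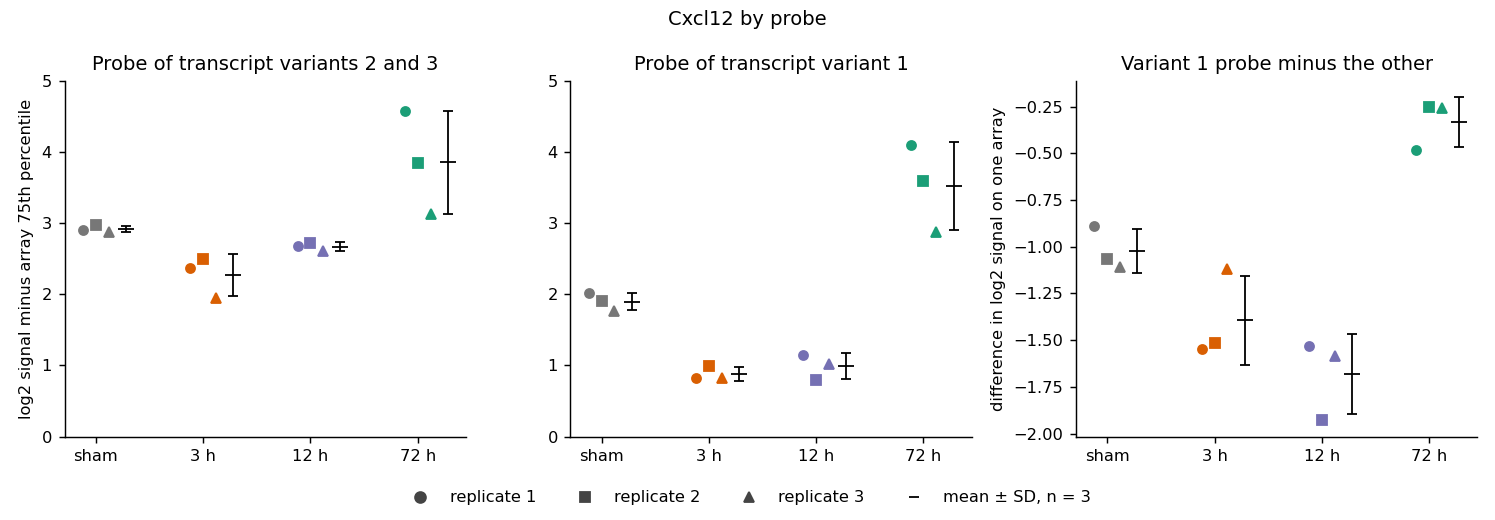
Cxcl12 on each array by probe (left and middle, log2 intensity relative to the array's 75th percentile) and the variant 1 probe minus the other on the same array (right); shapes give the replicate and bars the mean ± SD (n = 3). The variant 1 probe lies between 0.80 and 1.15 at 3 h and 12 h and between 2.87 and 4.10 at 72 h, and the spacing lies between -0.48 and -0.25 at 72 h.

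Markers of several stromal groups were also higher at 72 h. Of 14 fibroblast and reticular stroma markers, 11 were called higher at 72 h (median difference 1.38), with Col1a1, Grem1 and Bst1 higher by 3.00, 3.14 and 3.16. At 3 h 3 were called higher and at 12 h 3 higher and 4 lower. Grem1 and Bst1, the latter also expressed by neutrophils, lay above all sham arrays already at 12 h, when both Cxcl12 probes lay below sham. By contrast, Col1a1, Col1a2, Col3a1 and Lum lay below all sham arrays at 12 h and above them at 72 h, like both Cxcl12 probes. Col1a1 read 3.88 to 3.96 in sham and 2.25 to 2.39 at 12 h, and Col1a2 read 5.69 to 5.80 and 3.85 to 3.98. Among the 72 h arrays Col1a1, Col1a2, Col3a1 and Lum were highest on replicate 1, whereas Grem1 and Bst1 were highest on replicate 3. Of 10 blood endothelial markers, 5 were higher at 72 h, among them Cdh5 (1.76), and 1, Cldn5, was lower at 3 h and 12 h. Among the 72 h arrays, Cxcl12 was highest on replicate 1 and lowest on replicate 3. The mean levels of the fibroblast list (4.08, 3.74 and 3.55) and of the 10 blood endothelial markers (1.265, 0.676 and 0.098) stood in the same order. So did those of 8 mesothelial markers (1.28, 0.67 and 0.28) and of 8 fat cell markers (2.97, 1.90 and -2.92). The fat cell list ranged from 0.22 to 1.23 on the sham arrays and from -3.44 to -0.59 at 3 h. The part of these cells and of tissue taken along with the cecum in the Cxcl12 level was not tested. With slide as a block, the 72 h minus sham difference of the variant 1 probe was 1.58 (limma adjusted p = 0.118), and that of the brighter probe 1.04 (0.324). The 72 h minus 12 h rise of the variant 1 probe stayed called with this block (2.50, limma adjusted p = 0.0104), unlike that of the brighter probe (1.25, limma adjusted p = 0.16). The variant 1 probe was also called for 72 h minus 3 h with the block (2.60, limma adjusted p = 0.0284) and the brighter probe was not (1.68, 0.0923).

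Cxcr4, the receptor of Cxcl12 on lymphocytes, neutrophils and progenitors, was not called at any time, although its 12 h and 72 h arrays lay above sham. Its brighter probe, A_52_P585124 (NM_009911, chromosome 1 of mm9, 130485079 to 130485138, minus strand) holds the AATAAA hexamer, while the other, A_55_P2745744 (130486114 to 130486173), does not. Their last 30 bases are shown because the 2 probes had their highest means at different times.
Cxcr4, A_52_P585124: gtaaattgAATAAAgctagccgtgatcctc
Cxcr4, A_55_P2745744: tgtcaacctctacagcagcgttctcatcct

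On the brighter probe, A_52_P585124, Cxcr4 read -1.47, -2.29 and -1.44 in sham, and the 3 h arrays gave -2.64, -1.29 and -0.41, the 12 h arrays -0.07, -0.88 and -0.43 and the 72 h arrays -0.62, -0.50 and -0.73. The 3 h arrays straddled the sham arrays. The differences were 0.29 (95% interval -0.77 to 1.34) at 3 h, 1.28 (0.22 to 2.33, limma adjusted p = 0.0876) at 12 h and 1.12 (0.06 to 2.17, limma adjusted p = 0.134) at 72 h. On the other probe of Cxcr4, A_55_P2745744, all later arrays lay above all sham arrays, by 1.13, 0.76 and 0.35 in the order of the times, with a limma adjusted p of 0.0766 for the first. The probes thus placed the highest mean at different times, 12 h on the brighter probe and 3 h on the other. Without 3 h replicate 1, whose spread enters the fit, Cxcr4 was called at 12 h (limma adjusted p = 0.0183, against 8.95% of all probes in that fit) and also at 72 h (0.0335, against 8.33%). Leaving out 3 h replicate 3 gave a call at 12 h (limma adjusted p = 0.0372) and none at 72 h (0.0624). Ackr3, the scavenging receptor of Cxcl12, was 0.93 higher at 72 h (limma adjusted p = 0.00107, under 2-fold).

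Cxcl13 and Cxcr5 form the axis that gathers B cells into follicles. Cxcl13 (A_51_P378789, NM_018866, chromosome 5 of mm9, 96389861 to 96389920) read 2.07, 1.69 and 1.96 in sham, and the 3 h arrays gave 0.97, 2.57 and 3.24, the 12 h arrays 3.39, 3.32 and 3.18 and the 72 h arrays 1.04, 2.33 and 4.09. The 12 h arrays were close together and above all sham arrays, whereas the 3 h and 72 h arrays reached both below and above them. The 12 h difference of 1.39 (95% interval -0.19 to 2.96) was 2.61-fold and was not called (limma adjusted p = 0.212), with a spread shared over all 4 groups. When only the 12 h and sham arrays were fitted, Cxcl13, Cxcr4 and Ccr7 were called at 12 h, against 8.79% of all probes in that fit.

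Cxcr5 (A_52_P70796, NM_007551, chromosome 9 of mm9, 44320071 to 44320130) read 0.14, -0.48 and 0.29 in sham, and the 3 h arrays gave -2.71, 0.45 and 1.53, the 12 h arrays 0.81, -0.32 and 0.32 and the 72 h arrays -1.95, -0.85 and -0.29. Its 3 h arrays ranged over 4.24, on both sides of sham. Its differences of -0.23, 0.29 and -1.02 had intervals of -2.22 to 1.77, -1.71 to 2.28 and -3.01 to 0.98, and none was called (limma adjusted p = 0.881, 0.901 and 0.479).

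Ccl20 and Ccr6, the pair of the follicle epithelium and its B cells, also spread widely between the 3 h arrays. Ccl20 (A_51_P408595, NM_016960, chromosome 1 of mm9, 83115500 to 83115559) read 0.94, -0.06 and 0.49 in sham, and the 3 h arrays gave -0.95, 0.88 and 1.45, the 12 h arrays 1.14, -0.61 and 0.44 and the 72 h arrays -1.32, -0.76 and 0.17. Its differences were 0.00 (95% interval -1.45 to 1.45), -0.14 (-1.58 to 1.31) and -1.10 (-2.54 to 0.35). Although Ccl20 is known as an inducible chemokine of inflamed epithelium, these intervals hold both a rise and a fall of 2-fold at 3 h and 12 h.

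Ccr6 (A_55_P2108943, NM_009835, chromosome 17 of mm9, 8449933 to 8449992) read 1.90, 1.22 and 1.97 in sham, and the 3 h arrays gave -1.11, 1.80 and 2.60, the 12 h arrays 1.95, 0.74 and 1.66 and the 72 h arrays -0.17, 0.72 and 1.24. At every time the arrays overlapped sham. The differences were -0.60 (-2.40 to 1.19), -0.25 (-2.04 to 1.55) and -1.10 (-2.90 to 0.70), and none was called.

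Several of these genes varied widely between arrays of 1 group. The pooled SD within groups was 1.23 for Cxcr5, 1.15 for Ccl19, 1.11 for Ccr6, 0.97 for Cxcl13 and 0.89 for Ccl20, against a median of 0.245 over all 37074 genes. Each of the 5 exceeded at least 96.9% of all genes. Ccl19 was above background on 11 of 12 arrays, all but 1 of the 3 h arrays. By contrast, the pooled SD was 0.42 for Ccr7, 0.39 for Cxcl12, 0.36 for Ccl28 and 0.19 for Ccl25.

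Markers of B cells spread over the same arrays. The mean level of 12 B cell markers was 0.54, -0.13 and 0.53 on the sham arrays, and the 3 h arrays gave -2.69, -0.68 and 0.57, the 12 h arrays 0.72, -0.36 and 0.25 and the 72 h arrays -1.12, -0.43 and -0.27. Among them Ms4a1, which encodes CD20, read -2.37, 1.15 and 2.62 at 3 h. The summed signal of the B cell list, relative to the 75th percentile, ranged from 6.79 to 36.9 at 3 h and from 25.7 to 41.4 in sham, and 0 of its 12 markers were called at any time (median differences -1.15, -0.13 and -1.06). The 3 arrays of a group stood in the same order for Ccl20 and the B cell mean in all 4 groups. For Cxcr5, Ccr6, Cxcl13 and Ccl19 they did so in 3 of 4, and for the brighter probe of Cxcr4 in 2 of 4. For Ccr7 and the brightest probes of Ccl25 and Ccl28 it was 1 of 4, and for the brighter probe of Cxcl12 0 of 4. A dimmer Ccl25 probe, A_52_P326713, had 2 of 4. The share of all genes with such an order was not determined, so these counts have no background beside them. At 3 h the order was replicate 1, 2, 3 from low to high for Cxcr5, Ccr6, Ccl20, Cxcl13, Ccl19 and the brighter probe of Cxcr4. The brightest probe of Ccl25 had this order too, over a range of only 0.385. T cell markers spread less at 3 h (range of their mean 1.23, against 3.26 for B cells), as did M cell markers of the follicle epithelium (1.33) and dendritic cell markers (0.46), and epithelial markers hardly (0.08). A wide spread at 3 h was not particular to B cells, since the mean of fat cell markers ranged over 2.86. It was highest on replicate 2. M cell markers were called higher for 3, 3 and 4 of 8 genes at the 3 times and lower for 0, 1 and 1. The gene called lower was Sox8, which was above background on 0 arrays. The arrays of Gp2 and Spib of this list overlapped sham at every time.

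**Figure D4:**
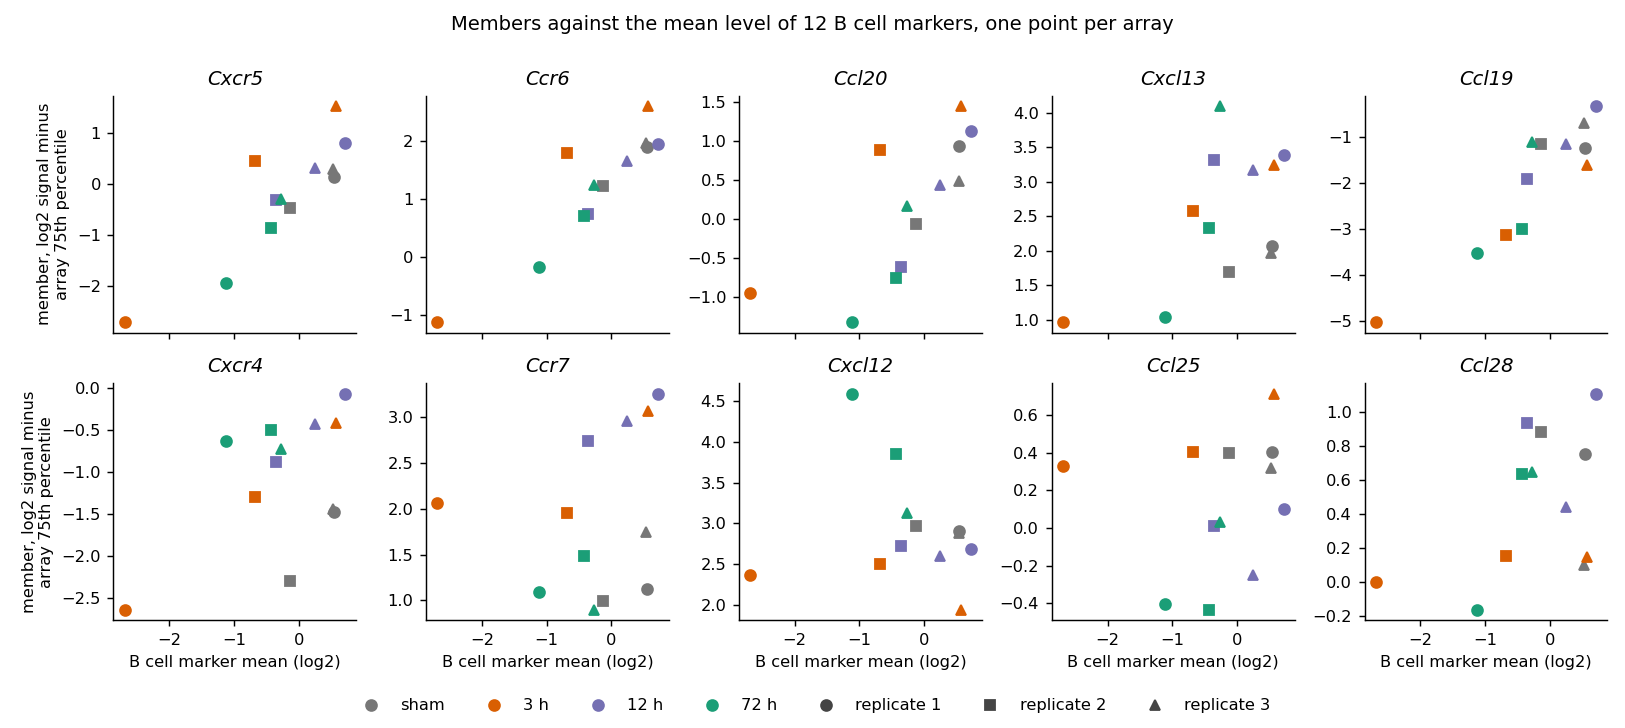
Level of each gene (vertical axes, log2 intensity relative to the array's 75th percentile) against the mean level of 12 B cell markers (horizontal axes, same scale), 1 point per array, with colors for the groups and shapes for the replicates. At 3 h the B cell mean runs from -2.69 to 0.57, and Cxcr5, Ccr6, Ccl20 and Ccl19 follow it over the arrays, while Ccr7, Cxcl12, Ccl25 and Ccl28 do not line up with it.

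The fit was repeated with the B cell mean of each array as a covariate, an alternative added after the values were seen. In this fit 3 of the 10 genes were called at 3 h, where 7.55% of all probes were, namely Cxcr5 (1.42, limma adjusted p = 0.0043), Cxcr4 (1.12, 0.00803) and Ccr7 (1.43, 0.0139). At 12 h the 2 genes called were Cxcr4 (1.35, limma adjusted p = 0.000917) and Ccr7 (1.73, 0.0018), against 9.04% of all probes. At 72 h Cxcr4 was called (1.73, limma adjusted p = 0.000621), against 8.23%. For 72 h minus 3 h, 4 genes were called, Cxcl12, Cxcr5, Ccr7 and Ccl20, against 11.6%. These calls of Cxcr4 are those of its brighter probe, which without the covariate was called at no time. With it, the other Cxcr4 probe, A_55_P2745744, was called at 3 h (1.71, limma adjusted p = 0.00796) but neither at 12 h (0.81, 0.0629) nor at 72 h (0.78, 0.102). Cxcr5 turned from -0.23 to 1.42 at 3 h, and Ccr6 from -0.60 to 0.88. The B cell mean was itself measured on the same arrays and was lowest on 3 h replicate 1. Without that array, and with no covariate, Cxcr5 and Ccr6 differed from sham by 1.01 and 0.50 at 3 h, and 72 h minus 3 h had 5 genes called, Cxcl12, Cxcr5, Ccr7, Ccl20 and Ccr6, where 11% of all probes were.

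No probe of the epithelial chemokines Ccl25 and Ccl28 was called in any of the 6 comparisons. Ccl25, the ligand of Ccr9, was measured by 4 probes. On the brightest, A_51_P161265 (NM_009138, chromosome 8 of mm9, 4359916 to 4359975), it read 0.32 to 0.40 in sham, 0.33 to 0.71 at 3 h, -0.25 to 0.10 at 12 h and -0.43 to 0.03 at 72 h. The 12 h and 72 h arrays all lay below sham, by -0.42 (limma adjusted p = 0.0932) and -0.64 (95% interval -1.0 to -0.29, limma adjusted p = 0.0186). The latter is 1.56-fold and so was not called. It lies beyond the median of all genes at this time, -0.14.

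The next 2 probes of Ccl25 also had lower means at 72 h, by -0.78 and -0.55, with no overlap of arrays and no call. On A_52_P326713, 12 h replicate 1 read -0.74, while its other arrays lay between -4.20 and -2.74. Its 72 h minus 12 h difference was -1.42 (2.67-fold, limma adjusted p = 0.136, not called). A_55_P2027852 was above background on 2 of 3 arrays at 72 h and lay above sham at 3 h. The remaining probe was not well above background on any array. Of the epithelial markers, 3 of 16 were called lower at 72 h (median difference -0.55), among them Car1 and Slc26a3. Ccr9 differed from sham by -0.62, -0.47 and 0.22 with no call.

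Ccl28, which attracts IgA plasma cells through Ccr10, was measured by 2 probes, both placed on an unplaced part of chromosome 13 of mm9. On the brighter, A_55_P2896652, its sham arrays read 0.76, 0.88 and 0.10, and every time overlapped them, with differences of -0.48, 0.25 and -0.21 and no call. The second probe of Ccl28, A_51_P276560, lay above all sham arrays at 12 h (-1.14 to -0.84, sham -1.47 to -1.14) and below them at 72 h (-2.16 to -1.64). Its difference of -0.57 at 72 h (limma adjusted p = 0.028) and of -0.87 for 72 h minus 12 h (1.83-fold, limma adjusted p = 0.00474) were below 2-fold. The probes differed in the size of the change and, for 72 h minus 3 h, in its direction (-0.428 on A_51_P276560 and 0.275 on A_55_P2896652, neither called). Ccr10 was 0.73 lower at 72 h (limma adjusted p = 0.0417, under 2-fold) and Ccr3, an eosinophil receptor that also binds Ccl28, was 1.35 higher (limma adjusted p = 0.0642, not called). Of 7 plasma cell markers, 0, 1 and 0 were called at the 3 times, the 1 being Tnfrsf17, lower at 12 h by -1.18.

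Among 24 measured partners of these genes, namely further receptors, scavengers and related chemokines, 6 were called higher than sham at 3 h and 4 at each later time. At each time 3 were called lower, not the same 3 throughout. The median differences were 0.13, 0.22 and 0.20, against 0.08, -0.01 and -0.14 for all genes. The counts of higher genes include Ccr1 at 3 h and Ccl22 at 3 h and 12 h, although neither was above background on any sham array. With each sham array's dimmest well-measured signal as the limit, their bounds were 0.945-, 1.24- and 1.2-fold, under 2-fold. Ackr4, which scavenges Ccl19, Ccl21 and Ccl25, was lower at all 3 times, by -2.14, -2.69 and -1.87 (limma adjusted p = 0.000325, 6.11e-05 and 0.00063). Its arrays read 0.13 to 0.78 in sham and -2.55 to -1.30 afterwards, without overlap. Ackr2, a scavenger of inflammatory CC chemokines, was called lower at 72 h (-1.71) and differed by 0.21 and -0.23 at 3 h and 12 h.

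The oxysterol pathway, which guides B cells and dendritic cells through Gpr183, changed at its enzymes. Ch25h, which makes 25-hydroxycholesterol, was 10.2-fold higher at 3 h (3.35, limma adjusted p = 1.17e-05), 5.42-fold at 12 h and 3.01-fold at 72 h. Cyp7b1, which converts it to the Gpr183 ligand, was higher at 72 h (3.54, limma adjusted p = 0.00339), with 72 h arrays at 4.43, 2.18 and 1.21 and sham arrays at -0.98 to -0.90. The receptor Gpr183 differed by -0.18, 0.20 and 0.18, with no call.

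Cx3cr1, a receptor of resident macrophages, was lower at 3 h (-2.79) and 12 h (-1.21) and 0.57 above sham at 72 h. Ccl17, a ligand of Ccr4 made by dendritic cells, was lower at 72 h (-2.22, limma adjusted p = 0.00878). Its sham arrays spread from -1.12 to 1.06. Ccr1 was above background on 0 sham arrays and on all 12 h and 72 h arrays, at least 3.11-fold higher at 12 h (limma adjusted p = 0.00068) and at least 2.37-fold at 72 h (0.0017), with each sham array's dimmest well-measured signal taken as the limit.

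**Figure D5:**
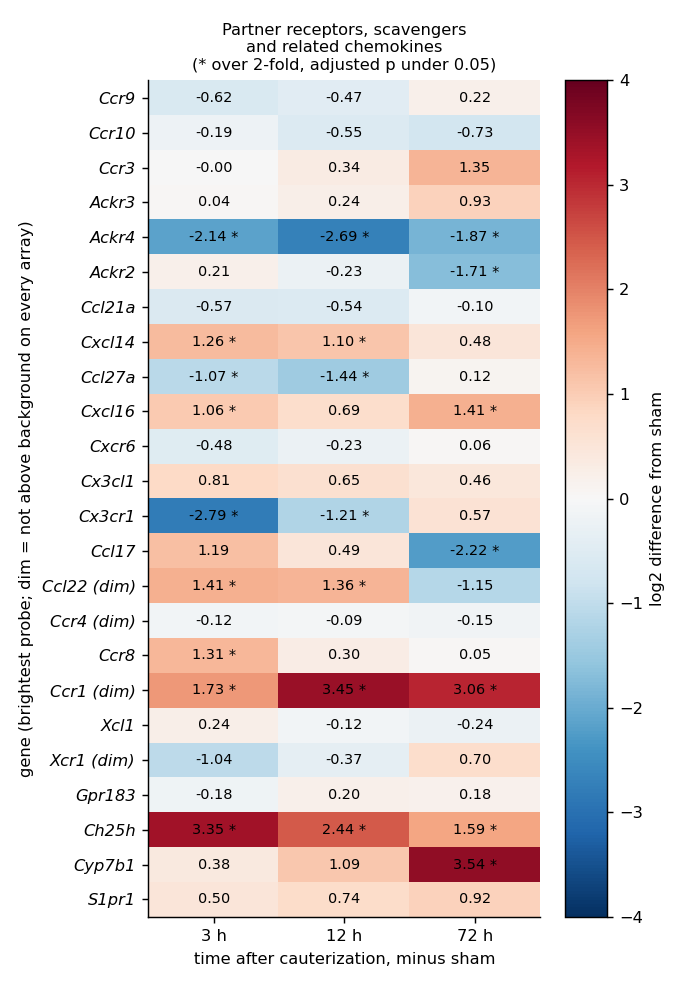
Differences from sham (color and printed value, log2) of 24 receptors, scavengers and related chemokines at the 3 times, on the brightest probe of each gene; stars mark over 2-fold with an adjusted p under 0.05, and values of genes called dim, not above background on every array, are fitted values and no fold change. Ackr4 is lower at all 3 times (-2.14, -2.69 and -1.87) and Ch25h higher at all 3 (3.35, 2.44 and 1.59).

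Of 33 genes of lymphoid tissue organisation, 6, 8 and 6 were called higher in the order of the times, and 0, 0 and 2 lower. Nfkb2 and Relb, subunits of the NF-κB branch through which lymphotoxin induces Cxcl13 and Ccl19 in stroma, were higher at 3 h (1.68 and 1.18, limma adjusted p = 0.000984 and 0.00363). Nfkb2 was also higher at 12 h (1.62) and 72 h (1.01). Bst1, a stromal and myeloid ectoenzyme, was higher by 1.57, 4.12 and 3.16, and Tnfsf14, which encodes the ligand LIGHT, by 1.38, 2.98 and 2.72. Il22, well above background on 1 of 3 sham arrays, was called higher at 3 h (limma adjusted p = 0.00145) and 12 h (0.00718). It read -6.62, -5.06 and -2.77 in sham, 1.1 to 3.26 at 3 h and -0.29 to 0.64 at 12 h, so no fold is given. Lta, which encodes lymphotoxin alpha, was lower at 72 h (-1.81, limma adjusted p = 0.0145), as was Il22ra2 (-2.41, 0.0226). Tnfsf14 and Bst1 of this list are also expressed by neutrophils, of whose 14 markers 9, 11 and 10 were higher at the 3 times. The part of neutrophils in these levels was not tested. Of 14 monocyte and macrophage markers 4, 8 and 10 were higher, and 10 of 10 smooth muscle markers were lower at 12 h.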

How the data were processed

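Gene expression was measured in mouse cecum on 1-colour Agilent SurePrint G3 Mouse GE v2 arrays, 3 per group. The authors deposited the scanner output, in which gProcessedSignal is a background-corrected intensity per spot, made with Feature Extraction 11.5.1.1 per the file headers and not normalized between arrays. A deposited log2 table, which per the study's methods was made in GeneSpring with 75th percentile scaling, proved to be centred by row medians and differed from the values computed here by a median of 0.000926 after the same centring. Depth has no counterpart on arrays, and 3 arrays per group limit the precision.

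Spots flagged as outliers (53 to 152 per array) and 3671 control spots were left out, and spots of 1 probe were averaged. On the log2 scale, each array's 75th percentile over 56605 probes was subtracted. A linear model of 4 group means was fitted with limma (version 3.58.1, R 4.3.3, moderated by eBayes, 8 residual degrees of freedom), with Benjamini-Hochberg adjustment over all probes. The fit was checked on simulated data. Comparisons with sham share the sham arrays. Coordinates were taken from the scanner output (mm9), and exons and UTRs were not assigned.

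Members and lists were chosen with earlier results of these data known. By the rule for names, every member probe, the partners of the members, up to 4 genes per list with the largest change, defining markers, sex genes and the 3 genes most like a called member were to be named. The text leaves out some of these, and some items are not reported here.

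Alternatives were quantile normalization, the percentile over probes above background on all 12 arrays, normexp (offset 50), the values of the authors' table, a filter on dim probes, outlier spots kept, slide or replicate number as a block, eBayes with trend and robust, only the compared groups fitted, the methods' t-test, no fold threshold, the mean of a gene's probes and leaving out each array. Added after seeing the data were fits within each slide and with the B cell marker mean as a covariate.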

Additional observations from a re-analysis of the deposited data

Results flagged for a closer look

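Groups of 3 arrays are too small to single out an array. The following differences between time points were tested with limma. Cxcl12 was higher at 72 h than at 12 h on both probes, by 1.19 (A_51_P172502, limma adjusted p = 0.0213) and 2.54 (A_55_P1966204, 0.000306), and higher than at 3 h by 1.59 (0.00314) and 2.65 (0.000114). Ccr7 was lower at 72 h than at 12 h by -1.83 (A_55_P2023542, limma adjusted p = 0.00371) and -1.96 (A_51_P420229, 0.003), and lower than at 3 h by -1.20 (0.0161) and -1.28 (0.0134). On 2 further probes, all arrays of 1 time lay above sham and all arrays of another below it. For Ccl25 on A_55_P2027852 the level at 72 h was below that at 3 h (-0.84, limma adjusted p = 0.0106), and for Ccl28 on A_51_P276560 the level at 72 h was below that at 12 h (-0.87, limma adjusted p = 0.00474). Both were under 2-fold. With slide as a block, the differences of both Ccr7 probes and of the brighter Cxcl12 probe, A_51_P172502, were not called, and those of Cxcl12 on A_55_P1966204 were. No explanation of these differences was tested.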

How the results depend on the processing

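Over the 6 comparisons, 1503 of 1600 values of single genes under an alternative kept their direction and their side of the thresholds, 45 changed sign, 32 lost a call and 20 gained 1. Most of these values belong to differences not called in the main fit, for which staying uncalled counts as kept. The share kept is therefore no measure of how firm the calls were. Ccr7 lost its call at 3 h in 12 of 27 alternatives and at 12 h in 1 of 27. The number of members called at 3 h was 0 with quantile normalization, the percentile over probes above background, normexp, slide as a block, the replicate block, only the compared groups fitted, the methods' t-test and within slide 1, and 3 with the B cell covariate. At 12 h it was 3 with only the compared groups fitted, 0 with the t-test and 2 with the covariate. At 72 h it was 1 with only the compared groups fitted (Cxcr4), with no fold threshold (Ccl25), with the mean of probes (Cxcl12, 1.28) and with the covariate. For 72 h minus 12 h it was 0 with slide as a block, the t-test and within slide 2, where 12 h has 1 array assumed to vary like the others, and 1 with only the compared groups fitted. For 72 h minus 3 h it was 0 with slide as a block and the t-test and 4 with the covariate. Without 1 array the numbers of members called were 0 to 1, 1 to 2, 0 to 1, 0 to 0, 1 to 2 and 1 to 5 for the comparisons in the order 3 h, 12 h and 72 h minus sham, 12 h minus 3 h, 72 h minus 12 h and 72 h minus 3 h.

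The replicate block moved Ccr7 at 3 h to an adjusted p of 0.0538 (limma) and changed no other member call. Same-numbered arrays had correlations of deviations from -0.404 to 0.264, with 6 of 18 over 0.1, and other pairs from -0.296 to 0.385, with 12 of 36 over 0.1. Replicate numbers thus gave no sign of pairing the samples, though deviations from means of 3 arrays cannot exclude it. The methods' t-test, paired by replicate number, at an unadjusted p under 0.05 and over 2-fold called Ccr7 at 3 h, Cxcr4, Cxcl13 and Ccr7 at 12 h, 0 genes at 72 h, Ccr7 for 72 h minus 12 h and Cxcl12 for 72 h minus 3 h, and 0 after Benjamini-Hochberg.

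Signs turned for Ccl20 at 3 h with quantile normalization (-0.012), the percentile over probes above background (-0.113) and normexp (-0.002), for Ccl25 at 3 h with that percentile (-0.007), for Cxcr5 at 3 h with normexp (0.009), for Ccl28 at 72 h with slide as a block (0.375) and for Ccl28 in 72 h minus 3 h with the mean of probes (-0.076). With the B cell covariate they turned for Cxcr5 at 3 h (1.42), 72 h (0.199) and 12 h minus 3 h (-0.986), Ccr6 at 3 h (0.875), 12 h minus 3 h (-0.991) and 72 h minus 12 h (0.106), Ccl19 at 12 h (0.027), Ccr7 at 72 h (0.136), Cxcr4 in 72 h minus 12 h (0.381) and Cxcl13 in 72 h minus 3 h (-0.028). Of these, those of Cxcr5 and Ccr6 at 3 h and in 12 h minus 3 h had an adjusted p under 0.05.

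Without 1 array, differences that turned sign ranged, at 3 h, from -0.493 to 0.707 for Ccl20, -1.11 to 1.01 for Cxcr5, -1.36 to 0.501 for Ccr6, -0.231 to 0.881 for Cxcr4, -0.139 to 0.996 for Cxcl13 and -0.008 to 0.185 for Ccl25. At 12 h they ranged from -0.544 to 0.33 for Ccl20, -0.496 to 0.29 for Ccl19 and -0.498 to 0.105 for Ccr6. At 72 h they ranged from -0.292 to 0.098 for Ccr7, -0.446 to 0.062 for Ccl28 and -0.22 to 1.30 for Cxcl13. For 12 h minus 3 h they ranged from -0.72 to 1.40 for Cxcr5, -0.749 to 1.11 for Ccr6 and -0.844 to 0.356 for Ccl20. For 72 h minus 12 h Cxcr4 ranged from -0.368 to 0.035. For 72 h minus 3 h they ranged from -0.57 to 0.952 for Cxcl13, -0.175 to 1.54 for Ccl19, -2.02 to 0.098 for Cxcr5 and -1.60 to 0.258 for Ccr6.

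Over all probes, 4148, 5059, 4673, 1860, 4008 and 6359 were called in these comparisons, and 1010, 1639, 1546, 705, 1344 and 1956 with normexp. With slide as a block 1724, 1750 and 1622 were called in the 72 h comparisons. The t-test called 0 except 1 for 12 h minus 3 h, and without a fold threshold 10467, 11815, 11286, 4856, 9970 and 21184 were called. Within slide 1, 1193 were called for 12 h minus 3 h, and within slide 2, 23 for 72 h minus 12 h. Averaging the probes of a gene tests genes in place of probes, and 2422, 3039, 2970, 1098, 2401 and 3839 genes were called. At 72 h 2338 probes were higher and 2335 lower, against 2616 and 1607 with quantile normalization and 1066 and 480 with normexp. At 3 h 1674 were higher and 2474 lower, against 764 and 246 with normexp, and at 12 h 2182 and 2877, against 1044 and 595. Of the probes called for 72 h minus 3 h, 3404 were higher and 2955 lower, against 3987 and 2023 with the percentile over probes above background. Quantile normalization moved the median of all probes from -0.147 to -0.022 at 72 h and from -0.245 to -0.019 for 72 h minus 3 h.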
